A study of Mus musculus with 6 samples.

Results

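Matricellular proteins are secreted into the matrix and act on cells without building the matrix themselves, and 8 genes of this kind were examined: the CCN genes Ctgf, Cyr61, Nov, Wisp1 and Wisp2, and the thrombospondin genes Thbs1, Thbs2 and Thbs3. They were taken by gene name from the 54532 genes of the deposited table, in the older symbols that the table uses (Ctgf is now Ccn2, Cyr61 is Ccn1, Nov is Ccn3, Wisp1 is Ccn4 and Wisp2 is Ccn5). The set was put together with values of the treatment contrast in view, so its levels and fold changes in that contrast are given as a description, with no p-value. The related genes Wisp3 (Ccn6), Thbs4 and Comp, which complete both families in the mouse, lie outside the set and are given beside it.

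The libraries were made from poly(A)-selected RNA of cultured wild-type mouse ovarian granulosa cells, the somatic cells around the oocyte. Cyclophosphamide, a chemotherapy drug that alkylates DNA once activated, was present for 24 h in 3 libraries, and 3 libraries were left untreated. Both were grown in DMEM/F12 medium with 10% fetal bovine serum, and the drug was added after 2 days of adherent culture. The treatment label of the drug group names injection into the abdomen instead, and the dose is not given. The cells are labelled as a cell line with no strain, age or passage, and nothing says that the libraries of a group came from separate cultures, so the spread between them may be technical.

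CCN proteins carry modules that bind growth factors, integrins and heparan sulphate, and CTGF and CYR61 are best known as rapid outputs of YAP and TAZ, the coactivators that bind TEAD factors and report cell spreading and tension. Thrombospondin 1, a trimer with type 1 repeats, binds CD36, CD47 and integrins, restrains vessel growth and can activate latent TGF-beta. In the ovary, CTGF supports follicle growth and ovulation, and thrombospondins limit follicle vessels.

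Depth ranged from 16458385 to 17607586 reads per library. Cyclophosphamide replicate 1 stood apart from replicates 2 and 3 on the second principal component (28.0, against -20.3 and -6.72), which held 4.68% of the variance, while the first (86.8%) separated the treatments. Most of the granulosa genes listed were present in both groups. Foxl2, which maintains granulosa fate, averaged 23.9 ± 1.66 FPKM in cyclophosphamide libraries and 32.5 ± 1.75 FPKM in untreated libraries (SD, n = 3 each), and the inhibin subunit gene Inha averaged 905 ± 158 and 1984 ± 95.8 FPKM in the same order. The aromatase gene Cyp19a1 was close to absent, with 1 read in all cyclophosphamide libraries and 3 in all untreated libraries. Amh was scarce as well, with 22 and 16 reads in the same order. Values are FPKM, read counts scaled to gene length and library size, so that levels can be set side by side between genes. In these bulk libraries, fewer cells of a type and less RNA per cell cannot be told apart.

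Thbs1, which encodes thrombospondin 1, was the most abundant member in untreated cells and was far lower after cyclophosphamide. Its level was 72.4, 29.4 and 39.5 FPKM in cyclophosphamide replicates 1 to 3, against 1991, 1948 and 2040 FPKM in untreated replicates 1 to 3. The groups were far apart, the untreated libraries lay close together, and the cyclophosphamide libraries spread more widely, with replicate 1 highest. Among all genes by FPKM it held rank 615, 1814 and 1226 in cyclophosphamide replicates 1 to 3, against 5, 6 and 5 in untreated replicates 1 to 3. It took 0.0289% ± 0.0129 of all reads in cyclophosphamide libraries and 1.19% ± 0.0188 in untreated libraries (SD, n = 3 each). The log2 fold change on the scale of log2(FPKM + 0.1) was -5.50 ± 0.28 (SE), and the ratio of the group means, untreated over cyclophosphamide, was 42.3. Thbs1 (ENSMUSG00000040152) lies on chromosome 2 from 118111876 to 118127133 on the plus strand, in coordinates read as GRCm38, with 22 exons in its longest coding transcript.

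Ctgf, which encodes connective tissue growth factor, had the lowest log2 fold change of the set. It was measured at 5.03, 2.50 and 2.53 FPKM in cyclophosphamide replicates 1 to 3, against 205, 175 and 200 FPKM in untreated replicates 1 to 3. Reads numbered 237, 128 and 125 in the cyclophosphamide libraries, against 9602, 8727 and 9655 in the untreated ones, so both groups were well above the counting limit. Replicate 1 was again the highest of the drug libraries, and no library of either group came near the other group. On the same log2 scale the fold change was -5.88 ± 0.24 (SE), and the ratio of group means, untreated over cyclophosphamide, was 57.7. Ctgf (ENSMUSG00000019997) is a compact gene on chromosome 10 from 24595442 to 24598683, plus strand. The noncoding gene Gm15270 on the opposite strand shares 665 bases with its exons (23.2%). Gm15270 had 0.0544 to 0.207 FPKM in cyclophosphamide libraries and 0.0865 to 0.149 FPKM in untreated libraries, below Ctgf in every library, and the sources used here do not say whether counting used strand.

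Cyr61 encodes a CCN protein that, like CTGF, binds integrins and is induced by YAP and TAZ, and its groups were not apart. Its level was 174, 241 and 167 FPKM in cyclophosphamide replicates 1 to 3, against 216, 211 and 213 FPKM in untreated replicates 1 to 3. The groups overlapped, since cyclophosphamide replicate 2 lay above every untreated library and replicates 1 and 3 below them. Its log2 fold change was -0.15 ± 0.14 (SE), a value at which 6546 of the 14885 genes tested lay lower. It was -0.32 without cyclophosphamide replicate 2 and -0.05 without cyclophosphamide replicate 3. The level of Ctgf divided by that of Cyr61 was 0.0289, 0.0103 and 0.0152 in cyclophosphamide replicates 1 to 3 and 0.951, 0.830 and 0.939 in untreated replicates 1 to 3. Cyr61 (ENSMUSG00000028195) lies on chromosome 3 from 145646976 to 145649981 on the minus strand, and like every CCN gene here it has 5 exons in its longest coding transcript.

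**Figure D1:**
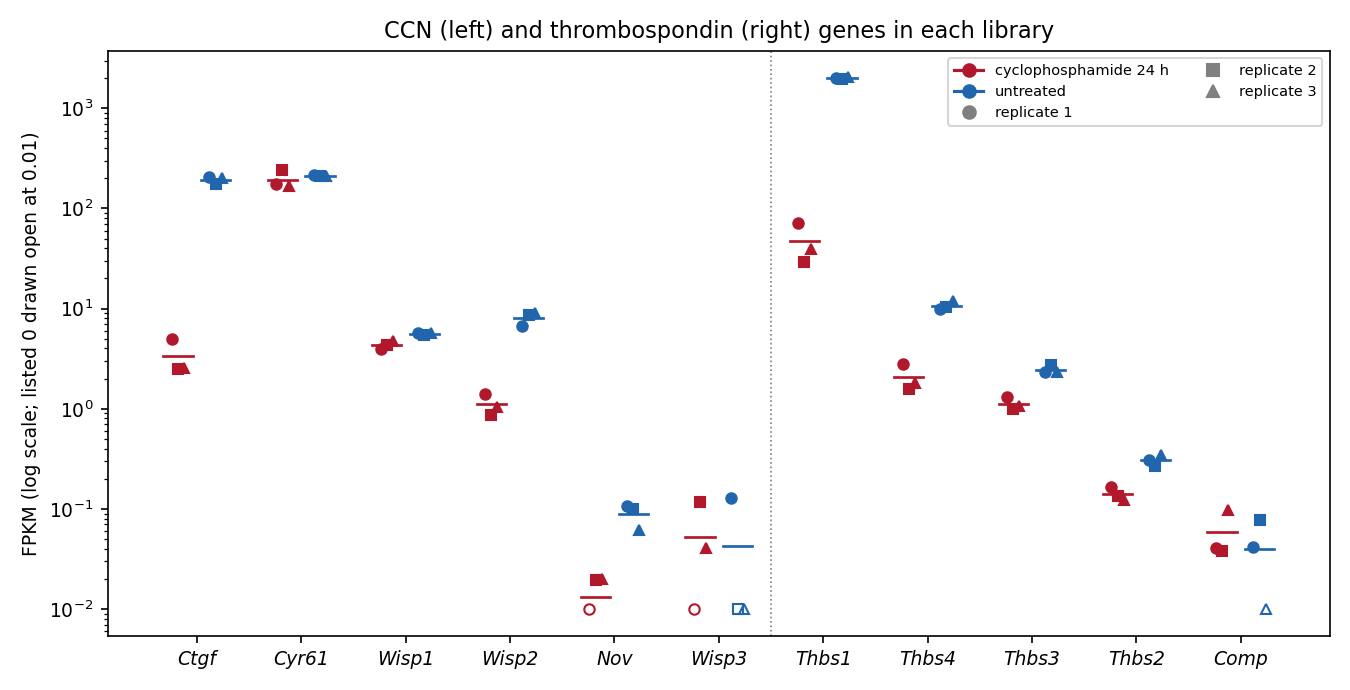
FPKM of each CCN and thrombospondin gene in every library, on a log axis, with cyclophosphamide (red) left of untreated (blue), horizontal bars for group means and open symbols for values listed at 0. Ctgf, Thbs1, Wisp2 and Thbs4 have wide gaps between the groups, while the cyclophosphamide libraries of Cyr61 (167 to 241 FPKM) lie on both sides of the untreated ones (211 to 216 FPKM).

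The RefSeq promoter table (GRCm38.p6) matched 5 of the 11 family genes, namely Cyr61, Thbs2, Thbs3, Thbs4 and Wisp3. The 250 bases upstream of the start site were searched on both strands for TEAD (GGAATG), AP-1 (TGANTCA), ATF half-site (TGACGT) and Sp1 (GGGCGG) motifs and for the CArG box bound by SRF. Printed here are the promoter of Cyr61, the CCN gene whose groups overlapped, and those of Thbs3 and Thbs4, 5′ to 3′ in the direction of transcription, with motif matches in capitals.
Cyr61, chr3:145649986-145650235, minus strand: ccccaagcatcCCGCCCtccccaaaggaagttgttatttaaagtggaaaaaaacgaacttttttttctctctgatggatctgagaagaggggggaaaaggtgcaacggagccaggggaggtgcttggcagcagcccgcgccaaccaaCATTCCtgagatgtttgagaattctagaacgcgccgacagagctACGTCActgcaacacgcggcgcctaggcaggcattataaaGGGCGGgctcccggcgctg
Thbs3, chr3:89214930-89215179, plus strand: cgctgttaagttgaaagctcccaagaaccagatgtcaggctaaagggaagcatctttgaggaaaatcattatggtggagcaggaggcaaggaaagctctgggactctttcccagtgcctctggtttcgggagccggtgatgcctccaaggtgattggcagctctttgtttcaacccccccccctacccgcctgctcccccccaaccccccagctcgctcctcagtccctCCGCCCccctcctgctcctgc
Thbs4, chr13:92794819-92795068, minus strand: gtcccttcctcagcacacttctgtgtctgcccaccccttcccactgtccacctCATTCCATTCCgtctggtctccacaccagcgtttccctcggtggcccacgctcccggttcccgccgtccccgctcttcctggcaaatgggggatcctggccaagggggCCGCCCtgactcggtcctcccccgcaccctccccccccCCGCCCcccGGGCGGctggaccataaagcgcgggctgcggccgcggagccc
The Cyr61 window held 1 TEAD match (CATTCC, read on the other strand) 103 to 98 bases upstream of the start, 1 ATF half-site (ACGTCA) 59 to 54 bases upstream and 2 Sp1 matches. Thbs4 held 2 TEAD matches that share a base, 197 to 187 bases upstream, and 3 Sp1 matches. Thbs3 held 1 Sp1 match 21 to 16 bases upstream, and the windows of Thbs2 and Wisp3 held none of these letters. Of 32851 promoters in the table, 12.6% held the TEAD motif in the same 250 bases, 6.75% the AP-1 motif, 1.47% a CArG box, 6.47% the ATF half-site and 32.7% the Sp1 motif. A match is a string of letters and was not tested as a binding site.

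Wisp2, which encodes a CCN protein that lacks the C-terminal knot module of the other members, was lower in every cyclophosphamide library. It had 1.42, 0.870 and 1.05 FPKM in cyclophosphamide replicates 1 to 3, against 6.71, 8.64 and 9.04 FPKM in untreated replicates 1 to 3. The groups did not overlap, and the ratio of group means, untreated over cyclophosphamide, was 7.29. Its log2 fold change was -2.77 ± 0.19 (SE), or -2.11 when the pseudocount was 1. Its coding sequence of 753 bases is the shortest of the 11 family genes, the other CCN genes having 1044 to 1137 bases.

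Wisp1, a CCN gene induced by WNT signalling, differed by little. It had 3.93, 4.37 and 4.74 FPKM in cyclophosphamide replicates 1 to 3, against 5.71, 5.45 and 5.66 FPKM in untreated replicates 1 to 3. All drug libraries lay below all untreated ones, with a log2 fold change of -0.36 ± 0.10 (SE). Unlike Ctgf and Thbs1, it was lowest in cyclophosphamide replicate 1. At this value 5224 of the genes tested lay lower.

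Nov, a CCN gene known to restrain proliferation, was near the detection limit. It held 0, 1 and 1 reads in cyclophosphamide replicates 1 to 3, against 5, 5 and 3 reads in untreated replicates 1 to 3. The ratio of reads, cyclophosphamide over untreated and scaled by depth, was 0.156. It rests on these few reads and was not tested, since the set was chosen on this contrast. Nov did not pass the filter on low reads and has no fitted fold change. Wisp3, the remaining CCN gene, held 4 reads in all cyclophosphamide libraries and 3 in all untreated libraries (ratio 1.35, interval 0.229 to 9.23), too few to detect a difference. Its exons share 482 bases (34.0%) with those of Tube1 on the opposite strand. Tube1 had 0.517 to 0.604 FPKM in cyclophosphamide libraries and 0.531 to 0.657 FPKM in untreated libraries. The Wisp3 reads could therefore belong to Tube1 if reads were counted without strand.

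Thbs4, a pentameric thrombospondin of muscle and tendon matrix and not in the set, was lower with cyclophosphamide. It had 2.81, 1.56 and 1.80 FPKM in cyclophosphamide replicates 1 to 3, against 9.88, 10.3 and 11.8 FPKM in untreated replicates 1 to 3. The groups did not overlap, and the highest drug library was again replicate 1. Its value of -2.36 ± 0.20 on the log2 scale passed the test over all genes (limma, adjusted p = 2.4e-05), where 35.8% of all genes tested were called lower. Its mean level was 5.20 times higher in untreated libraries.

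Thbs3, another pentameric thrombospondin, was lower in all drug libraries. It had 1.31, 0.995 and 1.06 FPKM in cyclophosphamide replicates 1 to 3, against 2.33, 2.72 and 2.34 FPKM in untreated replicates 1 to 3. This was a log2 fold change of -1.08 ± 0.15 (SE), with no overlap between the groups. Its exons share 318 bases (6.59%) with those of Mtx1, a mitochondrial import gene on the opposite strand. Mtx1 had 9.90, 9.74 and 9.80 FPKM in cyclophosphamide replicates 1 to 3 and 7.17, 8.58 and 8.45 FPKM in untreated replicates 1 to 3, higher than Thbs3 in every library, so part of the Thbs3 reads could belong to it if reads were counted without strand.

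Thbs2, the trimeric relative of thrombospondin 1 and, like it, known to restrain vessel growth, was weakly expressed. It had 0.165, 0.135 and 0.124 FPKM in cyclophosphamide replicates 1 to 3 (19, 17 and 15 reads), against 0.306, 0.270 and 0.346 FPKM in untreated replicates 1 to 3 (35, 33 and 41 reads). The groups did not overlap, and the ratio of means, untreated over cyclophosphamide, was 2.17. Its log2 fold change was -0.75 ± 0.18 (SE), it was -0.20 when the pseudocount was raised to 1, which exceeds its level, and limma-voom on reads gave -1.08. Comp, the cartilage thrombospondin, held 9 reads in all cyclophosphamide libraries and 6 in all untreated libraries (ratio 1.52, interval 0.484 to 5.19), and a difference was not detectable.

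**Figure D2:**
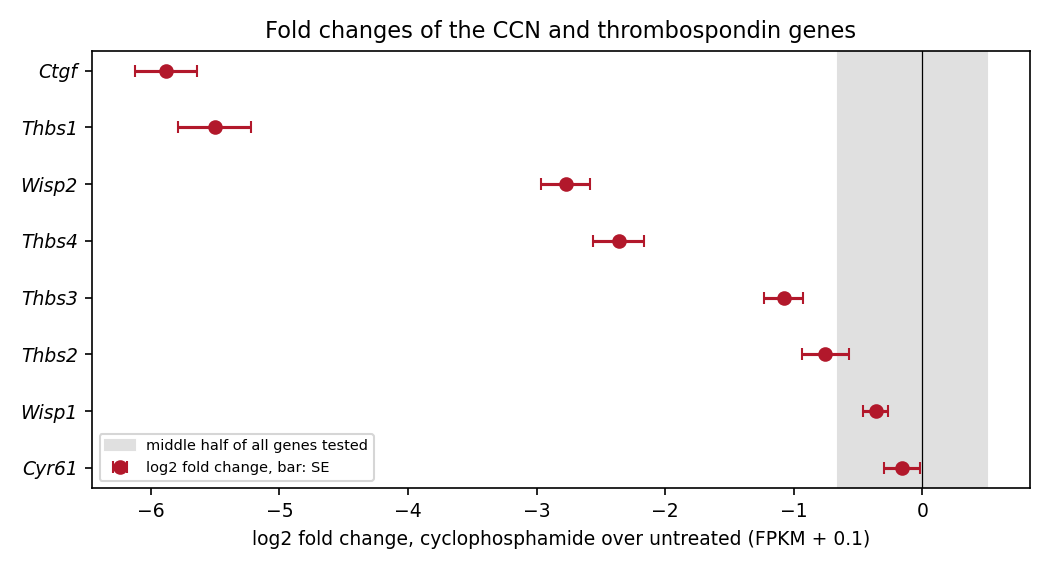
Log2 fold change of 7 members and Thbs4, cyclophosphamide over untreated on the log2(FPKM + 0.1) scale, with SE bars from limma and a grey band for the interquartile range of all genes tested (-0.66 to 0.50). Ctgf (-5.88) and Thbs1 (-5.50) lie far left, while Wisp1 (-0.36) and Cyr61 (-0.15) lie within the band.

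Counted together, 7 of 8 members, or 6 of the 7 past the filter on low reads, had all cyclophosphamide libraries below all untreated ones, where 37.8% of the 14885 genes tested did, and Cyr61 was the exception. Over all genes tested, limma called 68.9% in either direction, 35.8% lower and 33.1% higher. The small excess of lower calls depended on the scaling of the libraries. It turned round with scaling by the upper quartile (5543 genes higher against 4801 lower) and by total reads (5247 against 5045). It stayed with median of ratios scaling, at 5101 genes higher against 5204 lower. Of the 7 members past the filter, 4 (Ctgf, Thbs1, Wisp2 and Thbs3) had a log2 fold change at or under -1 on the log2(FPKM + 0.1) scale, a 2-fold lower level, where 16.7% of genes tested did, and Ctgf and Thbs1 were lower by at least 8-fold on that scale, where 0.914% were. Membership at this border depended on the measure, since Thbs2 had a ratio of means of 2.17 and a limma-voom value of -1.08, while Thbs3 was at -0.87 with a pseudocount of 0.5 and at -0.99 under upper quartile scaling. These shares describe the set, which was chosen on this contrast.

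The order of the members by FPKM differed between the groups. In cyclophosphamide libraries it was Cyr61, Thbs1, Wisp1, Ctgf, Thbs3, Wisp2, Thbs2 and Nov, with means of 194, 47.1, 4.35, 3.35, 1.12, 1.11, 0.141 and 0.0132 FPKM. There Wisp1 and Ctgf overlapped, as did Thbs3 and Wisp2, and the other neighbours did not. In untreated libraries the order was Thbs1, Cyr61, Ctgf, Wisp2, Wisp1, Thbs3, Thbs2 and Nov, with means of 1993, 213, 193, 8.13, 5.60, 2.47, 0.307 and 0.0894 FPKM, and no neighbours overlapped. Cyr61 thus made up 95.5% ± 1.25 of the summed CCN FPKM in cyclophosphamide libraries and 50.8% ± 1.70 in untreated libraries (SD, n = 3 each). Ctgf made up 1.72% ± 0.895 of that sum in cyclophosphamide libraries and 45.9% ± 1.93 in untreated libraries. Thbs1 remained the main thrombospondin transcript, at 92.9% ± 1.43 of the summed thrombospondin FPKM in cyclophosphamide libraries and 99.3% ± 0.0411 in untreated libraries. The thrombospondin sum divided by the CCN sum was 0.263 ± 0.144 in cyclophosphamide libraries and 4.78 ± 0.148 in untreated libraries.

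The libraries of a group did not spread alike for all members. In cyclophosphamide libraries the SD of log2 values was 0.66 for Thbs1 and 0.56 for Ctgf, larger than for 97.7% and 95.8% of genes tested, and 0.29 for Cyr61. In untreated libraries the SD was 0.03 for Thbs1, 0.12 for Ctgf and 0.02 for Cyr61. Of the 7 members past the filter, 5 had their highest drug value in cyclophosphamide replicate 1, and the exceptions were Cyr61 and Wisp1. The share was 41.9% of all genes tested and 71.3% of the 136 genes lower by at least 8-fold, Ctgf and Thbs1 among them. The library size behind the FPKM was 0.987 of the recovered reads in cyclophosphamide replicate 1, against 1.04 and 1.03 in replicates 2 and 3. FPKM in replicate 1 were therefore slightly higher for the same share of reads, and the part of this in the 2 shares was not tested. Without that replicate the log2 fold changes were -6.21 for Ctgf, -5.86 for Thbs1 and -2.95 for Wisp2, and -0.09 for Cyr61.

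**Figure D3:**
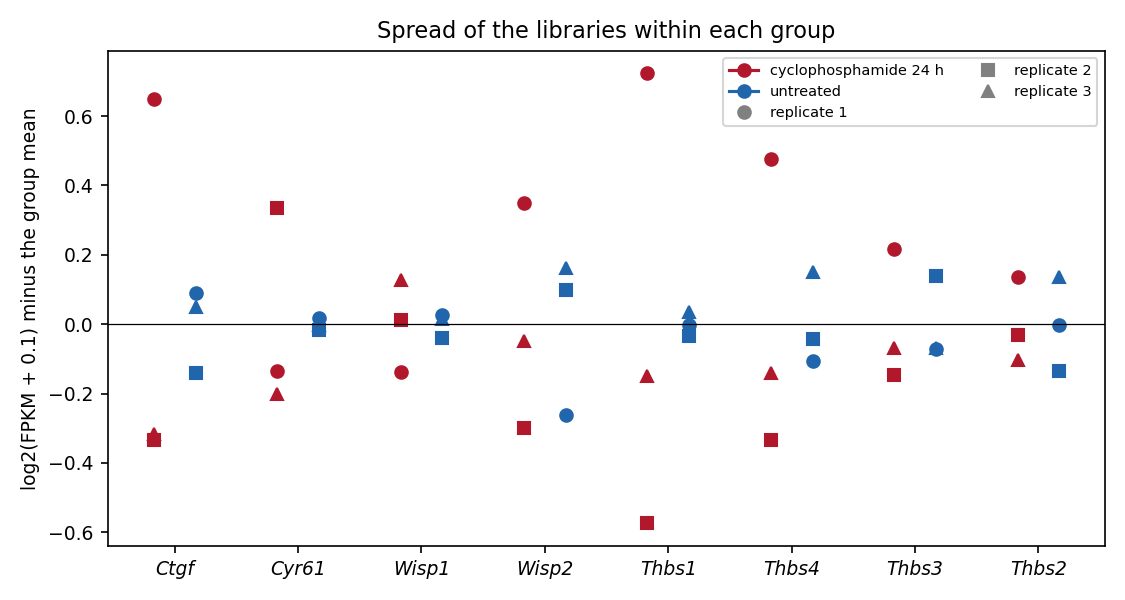
Deviation of each library from its group mean, in log2(FPKM + 0.1), for 7 members and Thbs4, with cyclophosphamide (red) left of untreated (blue) and a symbol for each replicate number. Cyclophosphamide replicate 1 (red circle) lies above the other drug libraries for Ctgf, Wisp2 and all 4 thrombospondin genes, and below or between them for Cyr61 and Wisp1.

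Genes with profiles most like each member were found by the root mean square distance between centred log2 values over the 6 libraries, among 10752 protein-coding genes. Ctgf and Thbs1 were each other's nearest gene, at a distance of 0.23, followed by Gdf6 (0.40) and the activin and inhibin subunit gene Inhbb (0.52) for Ctgf. For Thbs1 the next were the protease gene Prss23 and Inhbb, both at 0.35. Gdf6 averaged 0.022 FPKM in cyclophosphamide libraries, below the pseudocount of 0.1, and 4.83 FPKM in untreated libraries. Its place therefore depends on the pseudocount, and its log2 fold change was -5.35, or -2.51 with a pseudocount of 1. Wisp2 was nearest to Aldh1a2, a retinoic acid synthesis gene (0.10), Akap12 (0.11) and Trabd2b (0.12). Cyr61 was nearest to B3galt6 (0.07), Tbl3 (0.07) and Naglu (0.07), Wisp1 to Tmem131l (0.03), Thbs2 to Asb13 (0.02) and Thbs3 to Clybl (0.04). The 6 libraries hold both treatments, so a gene with a similar fold change is near by this measure. Ctgf and Thbs1 had the lowest log2 fold changes of the 14885 genes tested, with 0 and 1 genes lower. They were also chosen on this contrast, so their nearness adds little to those fold changes.

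Receptors of these proteins were mostly lower. Of 14 genes, all tested, 10 fell and 1 rose, with a median log2 fold change of -0.75, against -0.02 over all genes tested, of which 35.8% were called lower and 33.1% higher. Cd36, a scavenger receptor through which thrombospondin 1 acts on endothelial cells, averaged 1.84 ± 0.137 FPKM in cyclophosphamide libraries and 8.24 ± 0.612 FPKM in untreated libraries (SD, n = 3 each), and its log2 fold change was -2.11 ± 0.11 (limma, adjusted p = 2.4e-06). Cacna2d1, a calcium channel subunit that binds thrombospondins at synapses, fell by 2.29 ± 0.09 (limma, adjusted p = 9.7e-07). Sdc4, a heparan sulphate proteoglycan that acts as a co-receptor for CCN proteins, had 52.4 ± 3.54 FPKM in cyclophosphamide libraries and 170 ± 1.47 FPKM in untreated libraries, and fell by 1.70 ± 0.07. Notch1, which NOV can bind, was the 1 gene that rose, by 1.55 ± 0.14, to 3.39 ± 0.279 FPKM in cyclophosphamide libraries, against 1.09 ± 0.117 FPKM in untreated libraries. Cd47, the other main thrombospondin 1 receptor and picked out after its values were seen, had 7.57 to 9.73 FPKM in cyclophosphamide libraries and 7.61 to 9.13 FPKM in untreated libraries, and the groups overlapped (log2 fold change 0.06 ± 0.11, limma, adjusted p = 0.63).

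Genes of latent TGF-beta, which thrombospondin 1 can activate and which in turn induces Ctgf, were lower too. Of 7 tested, 6 fell and 0 rose in limma (0 higher at an unadjusted p under 0.05, and 0 in limma-voom), with a median of -0.83. Over all genes tested, 35.8% were called lower and 33.1% higher, with a median of -0.02. Tgfb2 averaged 0.945 ± 0.210 FPKM in cyclophosphamide libraries and 5.74 ± 0.0956 FPKM in untreated libraries and fell by 2.50 ± 0.16. Ltbp1, a latent TGF-beta binding protein gene, fell by 1.48 ± 0.12, and Tgfb3 by 0.83 ± 0.07.

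Among 13 tested genes (of 16) of other matricellular and related matrix proteins, 9 fell and 0 rose in limma (0 higher at an unadjusted p under 0.05, and 0 in limma-voom). One of the 9, Smoc2, had 1 to 4 reads in cyclophosphamide libraries and 10 to 19 in untreated libraries, and so passed the filter on low reads through the untreated libraries alone. With genes kept instead by a mean of at least 1 CPM over all libraries, 8 of 12 fell and 0 rose, with a median of -0.98, where 37.2% of all genes so kept were called lower and 34.6% higher. Tnc, which encodes tenascin C, averaged 6.73 ± 1.33 FPKM in cyclophosphamide libraries and 52.7 ± 2.70 FPKM in untreated libraries (limma, adjusted p = 1.5e-06). The fibulin genes Efemp2 and Fbln1 had log2 fold changes of -1.29 ± 0.08 and -1.33 ± 0.10, both past the test. Of 11 tested genes (of 21) outside both families, listed for their thrombospondin type 1 repeats, 9 fell and 1 rose. Of the 9, Adamtsl3, Hmcn1 and Thsd7b reached 10 reads in all untreated libraries but not in all cyclophosphamide libraries. Adamtsl3 (1 read in all cyclophosphamide libraries and 81 in all untreated libraries) and Hmcn1 (9 and 107 reads) passed the filter through the untreated group alone. Thsd7b had 34, 7 and 10 reads in cyclophosphamide replicates 1 to 3, too few to pass without the untreated libraries. By the mean of at least 1 CPM, 8 of 10 fell and 1 rose, with a median of -1.40. Sema5a, a semaphorin with such repeats, had 1.45 ± 0.300 FPKM in cyclophosphamide libraries and 27.5 ± 0.800 FPKM in untreated libraries and fell by 4.17 ± 0.13 (limma, adjusted p = 4.6e-07). Thsd7b fell by 4.35 ± 0.27, Thsd4 fell by 2.98 ± 0.23, and Thsd1 rose by 0.73 ± 0.17 (limma, adjusted p = 0.0053). The size of these changes depended on the pseudocount, and at 1 in place of 0.1 the log2 fold changes were -2.04 for Thsd7b, -1.18 for Thsd4 and 0.38 for Thsd1.

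Of 13 tested genes (of 14) that regulate CCN transcription, 4 rose (30.8%) and 6 fell (46.2%), with a median of -0.25, where 33.1% of all genes tested were called higher and 35.8% lower. Tead4, 1 of the 6, did not reach 10 reads in all cyclophosphamide libraries. Tead1, a DNA-binding partner of YAP and TAZ, had 4.69, 4.66 and 4.64 FPKM in cyclophosphamide replicates 1 to 3, against 20.4, 19.1 and 21.2 FPKM in untreated replicates 1 to 3, and fell by 2.09 ± 0.07 (limma, adjusted p = 4.9e-07). Tead2 fell by 0.88 ± 0.07. Srf, whose protein binds CArG boxes in genes of the actin cytoskeleton, rose by 1.02 ± 0.08, to 33.0 ± 1.83 FPKM in cyclophosphamide libraries, against 16.2 ± 1.39 FPKM in untreated libraries. The coactivator genes themselves differed less, and were picked out after their values were seen: Yap1 rose by 0.20 ± 0.06 (limma, adjusted p = 0.012) and Wwtr1, which encodes TAZ, fell by 0.45 ± 0.06 (limma, adjusted p = 0.00038). Of the listed SMAD genes, picked out in the same way, Smad3 rose by 0.55 ± 0.08 and Smad4 by 0.74 ± 0.07. Smad2 was not called (0.15 ± 0.09, limma, adjusted p = 0.17).

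Of 19 tested genes (of 20) that are other established YAP and TAZ targets, 12 fell (63.2%) and 6 rose (31.6%), with a median of -0.83, where 35.8% of all genes tested were called lower and 33.1% higher. Limma-voom called 13 lower and 6 higher. Nuak2, 1 of the 6, did not reach 10 reads in all untreated libraries. Crim1, a BMP-binding membrane protein gene, averaged 57.6 ± 4.73 FPKM in cyclophosphamide libraries and 313 ± 5.99 FPKM in untreated libraries and fell by 2.44 ± 0.08 (limma, adjusted p = 4.7e-07). Myof, a membrane repair gene, fell by 2.03 ± 0.07. Gadd45a, also a p53 target, rose by 2.72 ± 0.10, to 132 ± 10.4 FPKM in cyclophosphamide libraries, against 20.1 ± 2.47 FPKM in untreated libraries. Tgfb2 is in this list and in the latent TGF-beta list. Ctgf lay below every gene of the list in log2 fold change, and Cyr61 lay between the targets that fell and those that rose.

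**Figure D4:**
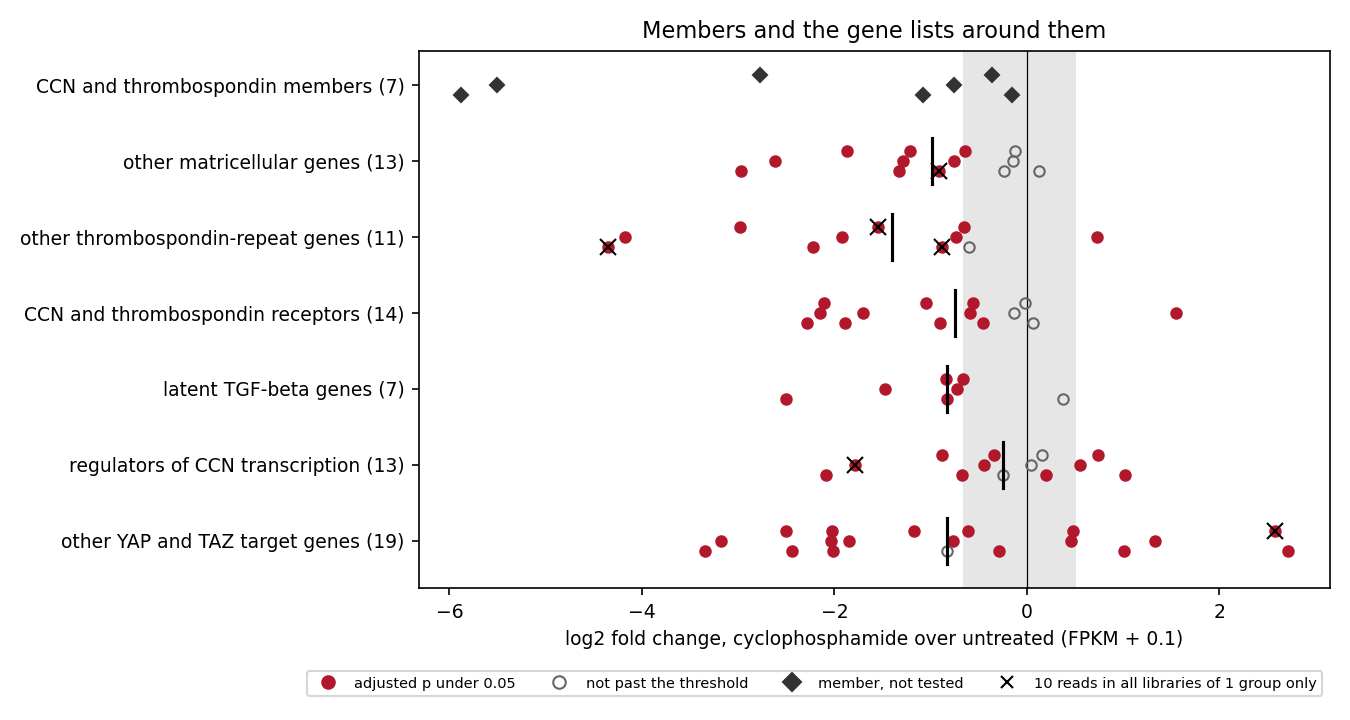
Log2 fold change of the members (black diamonds, no test) and of the genes in each list around them, with filled red circles past the adjusted p threshold, open circles not past it, crosses on genes that reached 10 reads in all libraries of 1 group only, vertical bars for the median of each list's genes with a mean of at least 1 CPM and a grey band for the interquartile range of all genes tested. Ctgf and Thbs1 lie left of every listed gene, and the YAP and TAZ targets lie on both sides of 0, from -3.34 for Rbms3 to 2.72 for Gadd45a.

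Markers of cell types that make these proteins elsewhere were lower in some lists and higher in others. Over all genes tested, 68.9% were called, 35.8% lower and 33.1% higher, and several lists held few tested genes. In the smooth muscle and pericyte list 4 of 6 tested genes fell, and the summed level of its 7 genes was 5.67 to 18.5 FPKM in cyclophosphamide libraries and 81.4 to 92.4 FPKM in untreated libraries, most of it from Acta2, with 0 higher in limma, at an unadjusted p under 0.05 and in limma-voom. One of the 4, Tagln, did not reach 10 reads in all cyclophosphamide libraries. In the surface epithelium list 5 of 6 fell and 0 rose by the same 3 counts, but Krt19, Upk1b and Upk3b, 3 of the 5, reached 10 reads in all untreated libraries only, and by the mean of at least 1 CPM 3 of 4 fell, with sums of all 6 of 50.0 to 73.5 and 107 to 120 FPKM in the same order. The platelet list, of cells rich in thrombospondin 1, had 1 of 2 tested genes higher and summed to 1.09 to 1.40 FPKM in cyclophosphamide libraries and 0.522 to 0.863 FPKM in untreated libraries, with Ppbp listed at 0 throughout and Pf4 at 1 read in all. None of 2 tested endothelial genes was called by limma or limma-voom (1 lower at an unadjusted p under 0.05), while 1 of 3 theca and stroma genes (Ptch1), 2 of 2 macrophage genes (Cd68 and Csf1r) and 1 of 2 oocyte genes (Gdf9) rose. In limma-voom, 2 theca and stroma genes were higher and 1 was lower. Ptch1 made up most of the theca and stroma sum, at 8.07 FPKM on average in cyclophosphamide libraries and 4.15 FPKM in untreated libraries, whereas Dcn had 0.367 and 0.650 FPKM and Lum 9 and 34 reads in the same order. The other macrophage markers were near 0, with 2 reads of C1qa in all cyclophosphamide libraries and 10 in all untreated libraries, 1 and 8 of C1qb, 3 and 7 of Tyrobp, 7 and 9 of Ptprc and 1 and 3 of Adgre1. Endothelial markers summed to 0.392 to 0.680 and 0.521 to 0.752 FPKM, theca and stroma markers to 9.58 to 9.86 and 5.94 to 6.17 FPKM, macrophage markers to 8.05 to 9.02 and 3.26 to 3.62 FPKM and oocyte markers to 2.35 to 3.87 and 0.676 to 0.848 FPKM, cyclophosphamide before untreated. Of the granulosa list 8 of 10 tested genes fell and 2 (Kitl and Nr5a1) rose, with a sum of 1104 to 1410 FPKM in cyclophosphamide libraries and 2845 to 3021 FPKM in untreated libraries. The part of these cell types in the values of the members was not tested.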

How the data were processed

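Polyadenylated RNA was sequenced from 3 cyclophosphamide and 3 untreated libraries, grouped by their titles. CASAVA and HISAT2 version 2.0.5 and the build GRCm39 are named in the submitters' processing notes, while the sources used here do not give the counting tool, strand setting or annotation. Although its name speaks of raw counts, the deposited table holds FPKM computed by the authors. Values times gene length came out as whole reads (100%, to within 0.01 of a read), and these reads set the filter and the depth. Of 54409 gene IDs shared with GENCODE M21 (GRCm38), 98.3% had an equal start and end, so coordinates are read as GRCm38. Per-sample columns left unused numbered 0.

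The contrast, cyclophosphamide minus untreated, was fitted to log2(FPKM + 0.1) by limma (version 3.58.1, under R 4.3.3), with a variance trend and Benjamini-Hochberg adjustment over all genes tested, two-sided, at 0.05. Genes needed 10 reads in at least 3 libraries and 15 in all, and 14885 passed. With 3 libraries a group an exact permutation test of a single value cannot go below p = 0.1 and was not used. The script was tested on simulated reads in which few genes changed, with rises and falls balanced. In these data 68.9% of genes were called, so that test covers the code and not the calls made here. Intervals and read counts cover counting error only. The members, the 6 gene lists, the 8 marker lists and the tests were chosen with earlier results of these data known. Of the list symbols 1 (Mrtfa) was not matched and is not used, and Mrtfb was matched through RefSeq synonyms. Genes of a list are named where they are among the 3 called genes with the smallest p or, in lists where 3 or fewer went against the majority, among those, and other listed genes were picked out after their values were seen. Nearest profiles were taken among genes with a mean of at least 1 FPKM. The alternatives were other pseudocounts, filters and scalings, the replicate number as a block, each library left out, and limma-voom on the recovered reads, which was chosen after seeing the data.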

Additional observations from a re-analysis of the deposited data

How the results depend on the processing

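The 7 fitted members kept their direction under every alternative run. Values moved beyond the spread between replicates for the members Wisp2 (-2.42 and -2.11 with pseudocounts of 0.5 and 1), Thbs3 (-0.87 and -0.71) and Thbs2 (-0.33 and -0.20, and -1.08 in limma-voom), since a pseudocount near the level of a gene shrinks its fold change. Among the other genes named, a pseudocount of 1 moved Thsd7b (-2.04), Thsd4 (-1.18), Thsd1 (0.38), Gdf6 (-2.51), Aldh1a2 (-1.46) and Asb13 (-0.49) by over 1.5 times, and all kept their direction. Leaving out each library in turn gave -6.21 to -5.71 for Ctgf, -5.86 to -5.22 for Thbs1 and -0.32 to -0.05 for Cyr61, and other scalings gave -0.13 to -0.06 for Cyr61. Upper quartile scaling moved the median of all genes to 0.07 and called 1 more regulator higher (5), and the other list counts were as in the main scaling. Over all genes, 10257 were called, 10440 with limma-voom and 9937 with the replicate block. Same-numbered libraries did not deviate together (correlations of -0.08, 0.005 and -0.03 for numbers 1 to 3), so the block rests on a number alone. No library correlated best with its own number in the other group. Genes called higher in the matricellular list and in the latent TGF-beta list ranged from 0 to 1 over the libraries left out, in both cases 1 without cyclophosphamide replicate 2. The calls of B3galt6 (-0.46), Tbl3 (-0.35) and Naglu (-0.25) also appeared only without that library. The planned negative binomial count models and TMM scaling were not run, because the deposited unit is FPKM. Depth limits Nov, Wisp3 and Comp, with 15 reads or fewer each over all libraries.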
